A study of Homo sapiens with 6 samples.

Results

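LINC symbols name long intergenic noncoding RNA genes: loci that are transcribed, spliced and polyadenylated much like messenger RNAs but were catalogued without a protein product. The set described here was chosen by summed raw counts and held every symbol made of LINC and a number with at least 60 over the 6 libraries. It numbered 85 of the 614 such symbols and of 56637 symbols in all. Another 372 LINC symbols had 0 counts in every library and 157 had at least 1 count but fell under the floor. The choice used the level over both groups together, so the levels are given as a description. The difference between groups was not used directly. Near the floor, though, a member high in 1 group could pass mainly through the counts of that group.

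The cells were MM.1S, an established human multiple myeloma line, grown from a malignancy of plasma cells. Lentivirus carrying an shRNA against luciferase (shLuc) or against KDM6B (shKDM6B) had been introduced, and both arms had then been selected with puromycin. Each arm had 3 libraries, and the replicate numbers are those of the labels. The 2 arms thus shared the virus and the drug and differed in the hairpin, and 1 hairpin target stood in each arm, so an effect of KDM6B loss and another effect of the hairpin sequence cannot be told apart. Whether the cultures of an arm were kept apart is not given in the sources used here, and the spread behind each p-value is that of these libraries alone and may be technical. In bulk RNA, fewer cells that express a transcript and less of it per cell cannot be told apart.

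Long noncoding RNAs are usually present at lower levels than messenger RNAs and are often made in few cell types. Some act on the neighbouring gene through the act of transcription, some bind proteins or microRNAs in the nucleus or cytoplasm, and many have no known role. A few that were first catalogued as noncoding were later found to encode short proteins. KDM6B (JMJD3) is a histone demethylase that takes away the repressive trimethyl mark on lysine 27 of histone H3.

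The libraries held 7338393 to 8996159 counts in shLuc and 7952156 to 9848351 in shKDM6B. KDM6B itself had 409, 505 and 437 raw counts in shLuc and 239, 270 and 348 in shKDM6B, so all 3 shKDM6B values lay below all 3 shLuc values, and its level was 61.1% of the control (-0.71 on the log2 scale, SE 0.07, adjusted p = 7.72e-08). Of 9 plasma cell markers tested, 1 was higher, 2 were lower and 6 did not pass the threshold. Of the 6 epithelial markers searched for, 4 were tested and 3 of them, the keratins KRT5, KRT14 and KRT19, were higher. The other one, EPCAM, had 11, 12 and 20 counts in shLuc and 7, 5 and 13 in shKDM6B and did not pass (log2 fold change -0.82, adjusted p = 0.068). Of the other markers, CD3E of T cells (-0.59, adjusted p = 0.00727) and HBB of erythroid cells (-0.81, adjusted p = 5.75e-06) were lower. The summed level of 5 keratins was 9.06, 1.24 and 0.661 CPM (counts scaled to library size) in shLuc replicates 1 to 3 and 26.1, 40.5 and 0.404 CPM in shKDM6B replicates 1 to 3. The summed level of 4 fibroblast genes was 0.22 to 0.961 CPM in shLuc and 0.404 to 3.47 CPM in shKDM6B. The part of the keratin-bearing cells or RNA in the results below was not tested, and values without the 3 libraries with most keratin stand beside the calls that this ended.

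Taken as a sum, the LINC transcripts were less abundant in the shKDM6B libraries. Levels are CPM after scaling by the trimmed mean of M-values (TMM), and signed values in parentheses after a gene are log2 fold changes of shKDM6B against shLuc. The 85 members together stood at 1426, 1428 and 1445 CPM in shLuc replicates 1 to 3. In shKDM6B replicates 1 to 3 they stood at 1188, 1215 and 1259 CPM. The 2 groups did not overlap, and their means were 1433 ± 10.4 and 1221 ± 35.8 CPM (SD, n = 3 each). One transcript, LINC00657, supplied 12.07 to 14.68% of the member counts. Without it the sums were 1217, 1225 and 1239 CPM in shLuc and 1033, 1048 and 1107 CPM in shKDM6B, which again did not overlap. As a share of all raw counts, the members took 0.1415 to 0.1458% in shLuc and 0.1174 to 0.1266% in shKDM6B.

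**Figure D1:**
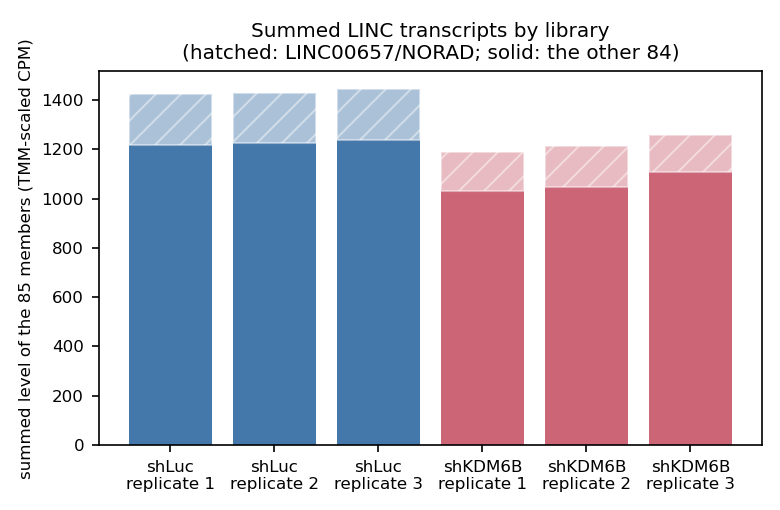
Summed level of the 85 LINC members in each of the 6 libraries, in TMM-scaled CPM, with LINC00657 (NORAD) hatched and the other 84 members solid. Each bar is 1 library, shLuc in blue and shKDM6B in red. The shLuc bars reach 1426 to 1445 CPM and the shKDM6B bars 1188 to 1259 CPM.

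Every member had at least 1 count in each library, but most were scarce. The median member had 286 counts over all 6 libraries, 32 members had fewer than 200, and the 10 most abundant held 47.0% of the member counts. The 3 members nearest to the floor were LINC00176 with 66 summed counts, LINC00863 with 65 and LINC01021 with 62. Just outside it stood LINC00035 with 55, LINC00936 with 51 and LINC00877 with 49. Per kilobase of GENCODE v29 exon, which could be given for 81 members, LINC00657 and LINC00996 led with mean levels of 34.1 and 33.5 CPM per kb. LINC00493 followed at 25.4, LINC00888 at 18.2, LINC00847 at 14.8 and LINC00116 at 12.4 CPM per kb, and the median was 2.59.

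Member by member, many more LINC transcripts fell than rose. Of 84 members tested, 27 were lower (32.1%), 4 were higher (4.76%) and 53 did not pass the threshold, an adjusted p under 0.05 in edgeR's quasi-likelihood test with Benjamini-Hochberg adjustment over the 13839 genes tested. Over all those genes, 18.9% were lower, 20.1% were higher and 39.1% passed in either direction. The share of members past the threshold, 36.9%, was therefore near that of all genes. The median log2 fold change was -0.17 over the members and -0.005 over all genes, and the log2 fold change was below 0 for 60 of 84 members (71.4%) and for 50.9% of all genes. In 31 members the 3 shKDM6B values lay wholly below the 3 shLuc values, in 5 wholly above, and in 48 the groups overlapped. Over all tested genes, 23.9% lay wholly below, 24.5% wholly above and 48.4% did one or the other. LINC00176 had too few counts to be tested, with 8 counts in each shLuc library and 13, 7 and 22 in shKDM6B.

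These counts changed with the libraries that were kept. Leaving out 1 library at a time gave 20 to 29 lower and 2 to 4 higher members. Over all genes, of which 13987 to 14168 were tested, these runs gave 2211 to 2536 lower and 2290 to 2567 higher. The libraries with most keratin were shLuc replicate 1 and shKDM6B replicates 1 and 2. Leaving them out together left 2 against 1 library. Fewer members, and fewer genes over all, were then called lower, and the share lost was larger among the members. The median log2 fold change was then -0.15 over the members and -0.009 over all genes. Library number and keratin content changed together there and cannot be told apart. With scaling factors computed on sparsely covered genes alone (few counts for their exon length), 62.3% of the called genes of the whole table were higher instead of 51.5%, and 25 members were lower and 5 higher.

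Antisense-named transcripts, symbols ending in -AS and a digit, are the closest other class of noncoding symbols in these files. Of 207 with at least 60 counts, 205 were tested. Among them 43 were lower (21%), 11 were higher (5.37%) and 151 did not pass, with a median log2 fold change of -0.18. Both noncoding classes thus had medians below 0, and no test of a difference between them or from other genes was made.

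Abundance sets how small a change can be called, so the members were also set beside genes of like depth. From 60 to under 200 summed counts, 9 of 31 LINC members were lower and 1 was higher, against 13.6% lower and 6.07% higher of 2077 genes. From 200 to under 600 counts, 4 of 19 members were lower and 0 were higher, against 18.7% lower and 14.2% higher of 1717 genes. With 600 or more counts, 14 of 34 members were lower and 3 were higher, against 20.1% lower and 24.3% higher of 9896 genes. In the same bands the median log2 fold changes of the members were -0.19, -0.22 and -0.15, and those of all genes were -0.10, -0.07 and 0.01.

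**Figure D2:**
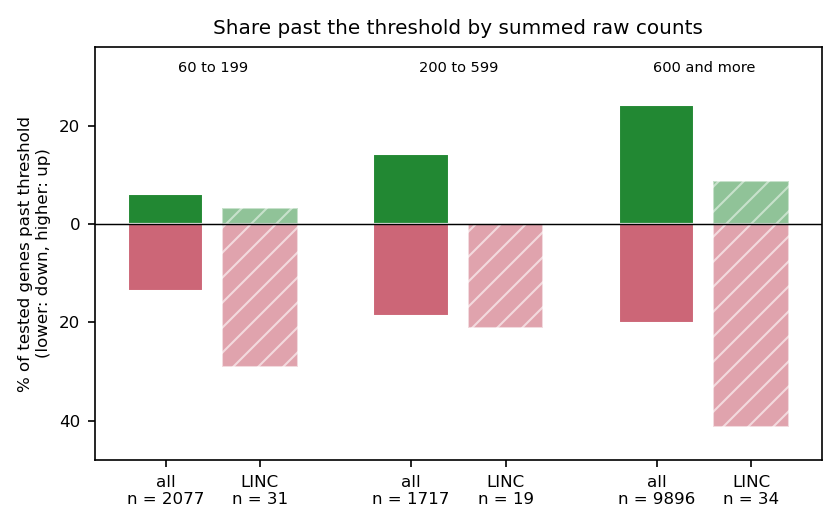
Percent of tested genes past the threshold, lower ones drawn downward in red and higher ones upward in green, for all tested genes (solid) and LINC members (hatched) in 3 bands of summed raw counts. In the band of 600 or more counts, 41.2% of 34 members were lower against 20.1% of all 9896 genes, and 8.82% were higher against 24.3%.

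**Figure D3:**
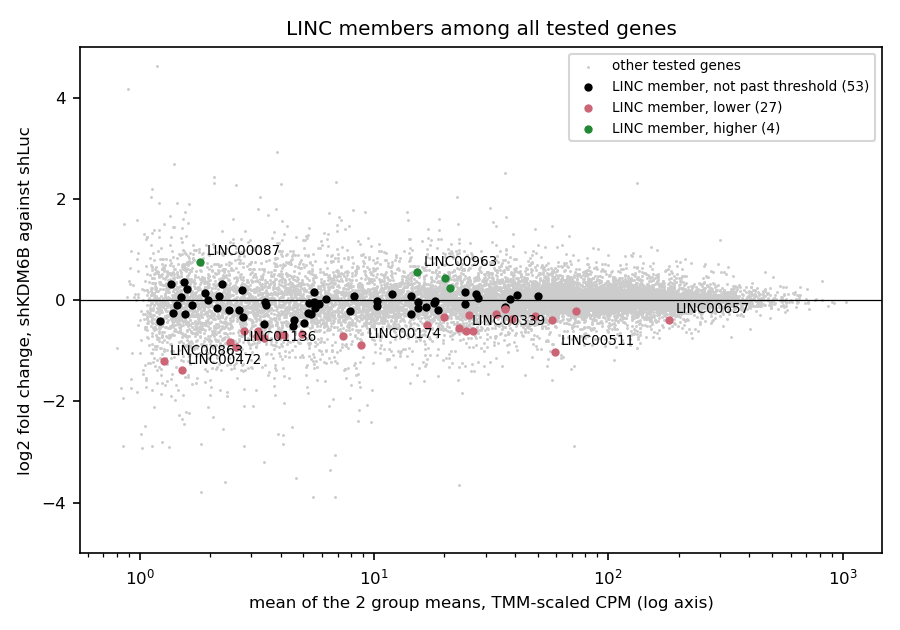
Log2 fold change of shKDM6B against shLuc by mean level in TMM-scaled CPM, on a log axis, with 1 point per tested gene. Members are drawn in red (27 lower), green (4 higher) and black (53 not past the threshold) over all other genes in grey. The lower members run from scarce transcripts such as LINC00472 to the most abundant, LINC00657.

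LINC00657, now named NORAD, was the most abundant member and fell. NORAD is a cytoplasmic RNA needed for stable chromosome number. Its level was 209, 203 and 206 CPM in shLuc replicates 1 to 3 and 156, 167 and 152 CPM in shKDM6B replicates 1 to 3. All shKDM6B libraries lay below all shLuc libraries, and the mean fell from 206 ± 3.06 to 158 ± 7.95 CPM (SD, n = 3 each, for a log2 fold change of -0.38 with SE 0.04 and adjusted p = 4.26e-07). The fall kept its side of the threshold under every alternative run, with a log2 fold change of -0.43 to -0.33.

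LINC00511 fell more than any other abundant member. It lies on chromosome 17 between SOX9, a developmental transcription factor, and the zinc transporter gene SLC39A11, and it has been studied mainly in solid tumours. Its level was 80.9, 78.7 and 77.8 CPM in shLuc and 35.6, 40.9 and 40.3 CPM in shKDM6B. The groups lay far apart, and the mean in shKDM6B was 49.4% of the control (79.1 ± 1.59 to 38.9 ± 2.86 CPM, SD, n = 3 each, for a log2 fold change of -1.02 with SE 0.06 and adjusted p = 8.49e-12). SLC39A11 was slightly higher (log2 fold change 0.14, adjusted p = 0.0464), and SOX9 had at most 10 counts in a library and was not tested.

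Of the other 8 members with the 10 highest mean levels, 4 fell. LINC00996, next to the GIMAP genes of lymphocytes on chromosome 7, stood at 77.7, 79.4 and 78.1 CPM in shLuc and 68.3, 63.6 and 69.9 CPM in shKDM6B (log2 fold change -0.22, SE 0.05, adjusted p = 0.0012). LINC00338, the small nucleolar RNA host gene SNHG20, stood at 61.8, 65.6 and 68.5 CPM against 49.5, 47.3 and 52.0 CPM (-0.40, SE 0.06, adjusted p = 7.8e-06). LINC00094, now BRD3OS, stood at 55.9, 57.3 and 48.0 CPM against 42.3, 42.7 and 45.1 CPM (-0.30, SE 0.07, adjusted p = 0.000937). LINC00888 stood at 44.2, 44.3 and 42.8 CPM against 33.1, 31.5 and 36.9 CPM (-0.36, SE 0.07, adjusted p = 0.000194). In each of these the groups did not overlap, by the narrowest margin in LINC00094. Without the 3 libraries with most keratin, LINC00996, LINC00094 and LINC00888 missed the threshold (adjusted p = 0.0918, 0.0655 and 0.0753), while LINC00338 kept it.

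The remaining 4 of the top 10 did not pass. LINC00341, counted apart from the nuclear envelope gene SYNE3 at the same locus, stood at 45.9, 49.5 and 50.7 CPM in shLuc and 49.0, 49.95 and 55.9 CPM in shKDM6B (log2 fold change 0.09, adjusted p = 0.297). LINC00667 (0.10, adjusted p = 0.226), LINC00909 (0.02, adjusted p = 0.817) and LINC00969 (-0.14, adjusted p = 0.157) likewise had overlapping groups. LINC00909 stood at 37.5, 37.4 and 38.2 CPM in shLuc and 40.1, 37.5 and 37.6 CPM in shKDM6B, which is the closest match between groups among these 10. Among the next 10 by level, LINC00493, LINC00984, LINC01128 and LINC00426 did not pass, with log2 fold changes from -0.08 to 0.16. In all, 12 of the 20 most abundant members fell, 0 rose and 8 did not pass. Of all tested genes with 600 or more summed counts, 20.1% were lower and 24.3% were higher.

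The 2 largest falls in fold were in scarce transcripts. Only 3 members fell by 2-fold or more, LINC00511, LINC00472 and LINC00863, where 2.12% of all tested genes were lower by that much. LINC00472, a transcript of chromosome 6 described as a growth suppressor in breast cancer, had 16, 18 and 22 raw counts in shLuc and 2, 8 and 12 in shKDM6B (log2 fold change -1.39, SE 0.36, adjusted p = 0.00351). LINC00863 had 15 counts in each shLuc library and 3, 6 and 11 in shKDM6B (-1.21, SE 0.36, adjusted p = 0.01). Both had no overlap between groups, and in both the shKDM6B libraries differed severalfold among themselves. Without the 3 libraries with most keratin, LINC00472 stood at -0.87 (adjusted p = 0.198) and LINC00863 at -0.58 (adjusted p = 0.476).

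The 300-base window around the RefSeq start of LINC00472, on the minus strand of GRCh38.p14 at chr6:71420696-71420995, is shown because the CCAAT box, a common promoter element, occurs in it at several places. The capitals mark CCAAT or its reverse complement at window positions 17, 60, 93, 229 and 232, of which the last pair overlap, and the last 50 bases are those after the start.
LINC00472: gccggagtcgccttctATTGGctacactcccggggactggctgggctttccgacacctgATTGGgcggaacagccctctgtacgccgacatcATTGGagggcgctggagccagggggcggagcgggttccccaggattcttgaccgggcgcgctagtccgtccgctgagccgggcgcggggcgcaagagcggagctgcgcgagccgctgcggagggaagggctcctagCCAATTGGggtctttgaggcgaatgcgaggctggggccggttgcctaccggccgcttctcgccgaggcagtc
A CCAAT box on either strand was present in 39.1% of the 64 members' windows and in 34.9% of the windows of tested genes. It was found in 13 of 23 lower members and 12 of 38 members that did not pass.

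Further falls were also in members of low level. The largest after LINC00511 were those of LINC01136 (-0.93) and LINC00174 (-0.88), which are described below with their neighbours. LINC00461, the host gene of the neuronal microRNA miR-9-2, stood at 9.20, 9.04 and 9.14 CPM in shLuc and 5.09, 5.26 and 6.36 CPM in shKDM6B (log2 fold change -0.70, SE 0.15, adjusted p = 0.000671). The spread within shLuc was narrow and the groups were well apart, though the adjusted p was 0.0742 without the 3 libraries with most keratin. LINC00943, LINC00881, LINC00992 and LINC00106 had log2 fold changes of -0.83, -0.74, -0.71 and -0.68. Their levels in shLuc were 3.12, 4.23, 3.95 and 5.15 CPM and in shKDM6B 1.74, 2.53, 2.39 and 3.13 CPM. In LINC00106 the highest shKDM6B library reached 4.34 CPM against 4.52 CPM in the lowest shLuc library, so these groups barely separated. Without the 3 libraries with most keratin these 4 missed the threshold. LINC00943 then stood at -0.749 (adjusted p = 0.163), LINC00881 at -0.609 (0.164), LINC00992 at -0.472 (0.307) and LINC00106 at -0.255 (0.561).

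**Figure D4:**
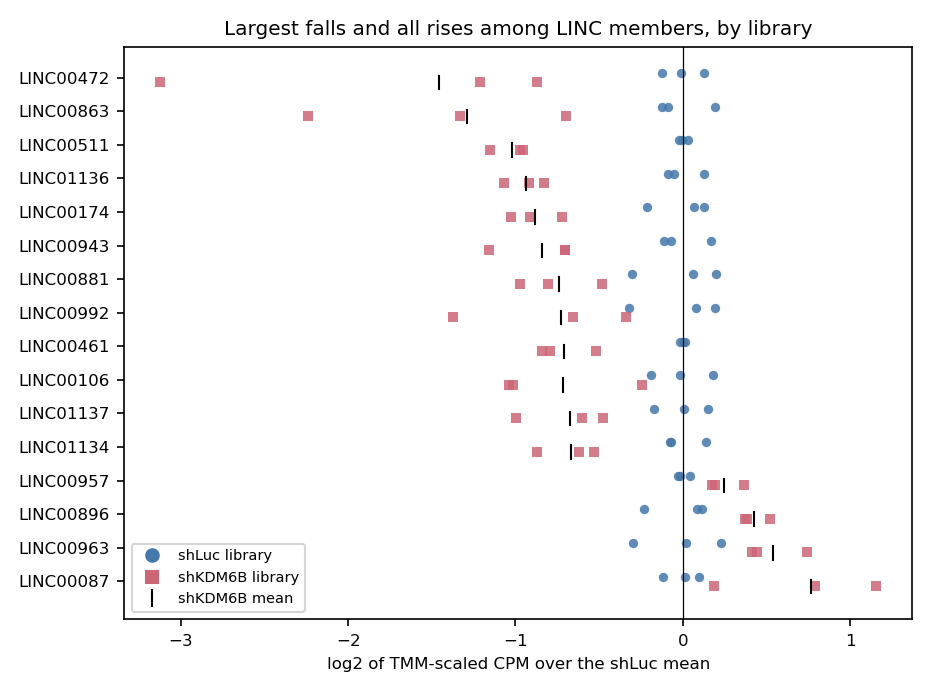
Level of each library over the shLuc mean, on the log2 scale of TMM-scaled CPM, for the 12 largest falls and all 4 rises among members past the threshold. Circles are shLuc libraries, squares are shKDM6B libraries and the vertical bar is the shKDM6B mean. In LINC00511 the 3 libraries of a group lie together, whereas in LINC00472 the shKDM6B libraries run from 0.2545 to 1.211 CPM.

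Smaller or moderate falls made up the rest. LINC00263 (OLMALINC), beside the fatty acid desaturase gene SCD, fell from 32.0 ± 1.80 to 20.8 ± 2.83 CPM (SD, n = 3 each, for a log2 fold change of -0.61 with SE 0.09 and adjusted p = 1.11e-05). LINC00467 fell from 19.7 ± 0.853 to 14.01 ± 0.661 CPM (SD, n = 3 each; -0.49, SE 0.10, adjusted p = 0.000299). LINC00680 (-0.33), LINC00938 (-0.27), LINC00847 (-0.18), LINC00630 (-0.62) and LINC01023 (-0.62) were also lower. Without the 3 libraries with most keratin, LINC00263 and LINC00467 kept the threshold and these 5 missed it. LINC00680 then stood at -0.18 (adjusted p = 0.384), LINC00938 at -0.16 (0.299), LINC00847 at -0.195 (0.176), LINC00630 at -0.89 (0.0535) and LINC01023 at -0.45 (0.397). SCD itself had a log2 fold change of -0.12 and passed as lower. Of the 27 falls, 16 reached 1.5-fold, and the 5 smallest were those of LINC00847, LINC00996, LINC00938, LINC00116 and LINC00094. The share of all genes with falls of 1.5-fold was not taken.

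The rises were few. LINC00963, on chromosome 9, had 92, 129 and 92 raw counts in shLuc and 133, 139 and 206 in shKDM6B (12.5 ± 2.22 to 18.1 ± 2.33 CPM, SD, n = 3 each, for a log2 fold change of 0.56 with SE 0.13 and adjusted p = 0.00128). LINC00896, on chromosome 22, stood at 18.7, 14.7 and 18.3 CPM against 22.3, 22.5 and 24.7 CPM (0.44, SE 0.10, adjusted p = 0.00115). Both kept the threshold under every alternative run. LINC00957 stood at 19.0, 19.99 and 19.2 CPM against 21.9, 25.0 and 22.1 CPM (0.24, SE 0.09, adjusted p = 0.0325). LINC00087 had 9, 12 and 13 counts against 12, 25 and 23 (0.76, SE 0.30, adjusted p = 0.0499). LINC00087 corresponds to 2 near-identical RefSeq genes of chromosome X, so its reads may have been split in counting, and its call was lost under 14 alternatives, with an adjusted p of up to 0.26. Without the 3 libraries with most keratin, LINC00957 missed the threshold (0.18, adjusted p = 0.376), as did LINC00087 (0.73, adjusted p = 0.26).

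Of the 31 calls, 11 were lost in at least 1 of the runs that left out a single library. Among the rises, LINC00957 missed the threshold without shLuc replicate 1 (adjusted p = 0.0781), shLuc replicate 3 (0.0759) or shKDM6B replicate 2 (0.169). LINC00087 missed it without any library but shKDM6B replicate 1, with 0.0867 to 0.247. Among the falls, LINC00863 missed it without shKDM6B replicate 1 (0.0607), LINC01137 without shKDM6B replicate 3 (0.0794), and LINC00943 without shLuc replicate 2 (0.0575) or shKDM6B replicate 1 (0.0538). LINC00881 missed it without shLuc replicate 3 (0.0594) or shKDM6B replicate 2 (0.057). LINC00106 missed it without shLuc replicate 3 (0.0759), shKDM6B replicate 1 (0.0783) or shKDM6B replicate 2 (0.0918). LINC00992 missed it without shLuc replicates 2 (0.0819) or 3 (0.0999) or shKDM6B replicates 1 (0.139) or 2 (0.0583). LINC01023 missed it without shLuc replicates 1 (0.0622) or 3 (0.156) or shKDM6B replicates 1 (0.124) or 2 (0.0956). LINC00630 missed it without shLuc replicate 3 (0.213) or any 1 shKDM6B replicate (0.0555 to 0.134). LINC00847 missed it without any library but shLuc replicate 1, with 0.0579 to 0.101. The other 20 calls held whichever library was left out.

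Among the 53 members that did not pass, 33 had a log2 fold change below 0, and the whole range was -0.50 to 0.35. In 4 of them the shKDM6B values nonetheless lay wholly below the shLuc values: LINC00641 (-0.19), LINC00528 (-0.27), LINC00324 (-0.46) and LINC00893 (-0.50). LINC00893 had 38, 44 and 52 counts in shLuc and 20, 34 and 44 in shKDM6B, its highest shKDM6B level being 4.44 CPM and its lowest shLuc level 4.97 CPM (adjusted p = 0.0543). LINC01055 alone lay wholly above, at 13.3 to 14.57 CPM in shLuc against 14.64 to 15.04 CPM in shKDM6B (0.09, adjusted p = 0.519). LINC00152, now CYTOR, a cytoplasmic RNA raised in many tumours, stood at 17.2, 18.6 and 16.6 CPM in shLuc and 16.04, 17.0 and 14.9 CPM in shKDM6B (-0.13, adjusted p = 0.302), and its groups overlapped. LINC01021, now PURPL, a target of p53, had 11, 13 and 11 counts against 10, 9 and 8 (-0.42, adjusted p = 0.374), too few to call a difference of this size.

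RefSeq now lists 11 of the 85 members as protein-coding, and 10 of these were tested. The match of 1 of them, LINC00341 (0.09), is uncertain, because it falls on SYNE3, which was counted under its own symbol. Of the 10, 3 were lower, 1 was higher and 6 did not pass, with a median log2 fold change of 0.07. The other 74 tested members had 24 lower, 3 higher and 47 not past, with a median of -0.19. LINC00998 encodes SMIM30, a small membrane protein of the endoplasmic reticulum, and stood at 27.3, 25.2 and 29.8 CPM in shLuc and 19.1, 21.0 and 16.7 CPM in shKDM6B (-0.54, SE 0.10, adjusted p = 8.75e-05). LINC00116 encodes MTLN, the mitochondrial microprotein mitoregulin, and stood at 27.6, 29.7 and 27.0 CPM against 22.9, 23.5 and 22.3 CPM (-0.30, SE 0.08, adjusted p = 0.00447). Neither had overlapping groups, and both calls held under every alternative run. LINC00493 encodes SMIM26, another mitochondrial small protein, and stood at 29.1, 27.3 and 25.9 CPM against 28.3, 28.9 and 27.8 CPM (0.05, adjusted p = 0.65), with groups that overlapped. LINC00094 (BRD3OS) was the third that fell, and LINC00087 (SMIM10L2B) the one that rose. LINC00341, LINC00984 (INAFM2, 0.11), LINC01125 (C2orf92, -0.03), LINC00672 (LASP1NB, 0.15) and LINC01155 (KANTR, 0.31) did not pass, and LINC00176 (C20orf204) was not tested.

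Because many such RNAs are transcribed beside a coding gene, each called member was set beside its nearest protein-coding genes on either side in RefSeq. Of 35 tested neighbours of lower members, 10 were higher, 9 were lower and 16 did not pass. Of 4 tested neighbours of higher members, 3 were higher and 1 did not pass. IER5L and NTMT1, among those 3, flank the same member, LINC00963. Of 62 tested neighbours of members that did not pass, 16 were higher, 8 were lower and 38 did not pass. At least 1 lower neighbour, overlapping or adjacent, was found for 11 of the 27 lower members, 23 of which had a tested neighbour. The same held for 9 of the 53 members that did not pass, 41 of which had a tested neighbour. Single genes were lower in 18.9% and higher in 20.1% of cases over the whole table, and many members had more than 1 tested neighbour. No test of these shares was made.

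LINC00339 and the gene next to it, CDC42, fell together. CDC42 encodes a small GTPase that controls the actin cytoskeleton. LINC00339 stood at 29.8, 30.4 and 29.3 CPM in shLuc and 22.0, 17.1 and 19.5 CPM in shKDM6B (log2 fold change -0.61, SE 0.09, adjusted p = 7.7e-06). CDC42 had 641, 791 and 780 raw counts in shLuc and 420, 433 and 500 in shKDM6B, and fell from 87.8 ± 1.71 to 51.9 ± 1.5 CPM (SD, n = 3 each; -0.76, SE 0.05, adjusted p = 7.52e-11). Neither gene had overlapping groups. The window around the start of LINC00339, on the plus strand of GRCh38.p14 at chr1:22025254-22025553, holds a pair of ETS core motifs on either side of that start, one beginning at position 235 and the other at 253, and is shown for them. The capitals mark the reverse complement of CCGGAAG, the letters bound by ETS factors.
LINC00339: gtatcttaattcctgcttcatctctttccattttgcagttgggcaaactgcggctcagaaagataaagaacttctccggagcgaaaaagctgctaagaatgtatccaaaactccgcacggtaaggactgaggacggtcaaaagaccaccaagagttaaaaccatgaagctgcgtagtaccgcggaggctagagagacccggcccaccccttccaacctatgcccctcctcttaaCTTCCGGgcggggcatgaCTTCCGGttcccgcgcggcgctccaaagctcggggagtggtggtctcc

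LINC00174 and its neighbour TPST1 both fell. TPST1 encodes an enzyme that adds sulfate to tyrosines of secreted proteins. LINC00174 had 87, 87 and 113 counts in shLuc and 44, 58 and 60 in shKDM6B (11.4 ± 1.39 to 6.195 ± 0.676 CPM, SD, n = 3 each, for a log2 fold change of -0.88 with SE 0.15 and adjusted p = 4.86e-05). TPST1 had 248, 321 and 327 counts against 149, 173 and 182 (-0.88, SE 0.08, adjusted p = 7.74e-09). On the other side of LINC00174, KCTD7 was higher (0.20, SE 0.07, adjusted p = 0.0297). LINC00963 stood between 2 genes that were both higher. IER5L had 103, 117 and 94 counts in shLuc and 146, 167 and 198 in shKDM6B (0.65, SE 0.11, adjusted p = 6.97e-05), and the protein N-terminal methyltransferase gene NTMT1 rose by 0.20 (SE 0.05, adjusted p = 0.00291).

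Neighbours of other lower members moved in either direction. GIMAP8 beside LINC00996 was lower (-0.24, SE 0.07, adjusted p = 0.00529). VAV2, next to LINC00094, was higher (0.44, SE 0.06, adjusted p = 5.2e-06), whereas BRD3, which overlaps it, was lower (-0.18, SE 0.07, adjusted p = 0.0424). LINC00847 overlaps ZFP62, which was lower (-0.44, SE 0.06, adjusted p = 1.06e-05). LINC00338 overlaps SEC14L1, which did not pass (-0.07, SE 0.05, adjusted p = 0.236). The library kit named in the labels does not mark strand, so where genes overlap their reads cannot be told apart. EPB41L1 beside NORAD was lower (-0.22, SE 0.05, adjusted p = 0.000808). TMEM161B on one side of LINC00461 was lower (-0.26, SE 0.07, adjusted p = 0.00528), and the transcription factor gene MEF2C on the other did not pass (-0.11, SE 0.05, adjusted p = 0.0609).

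**Figure D5:**
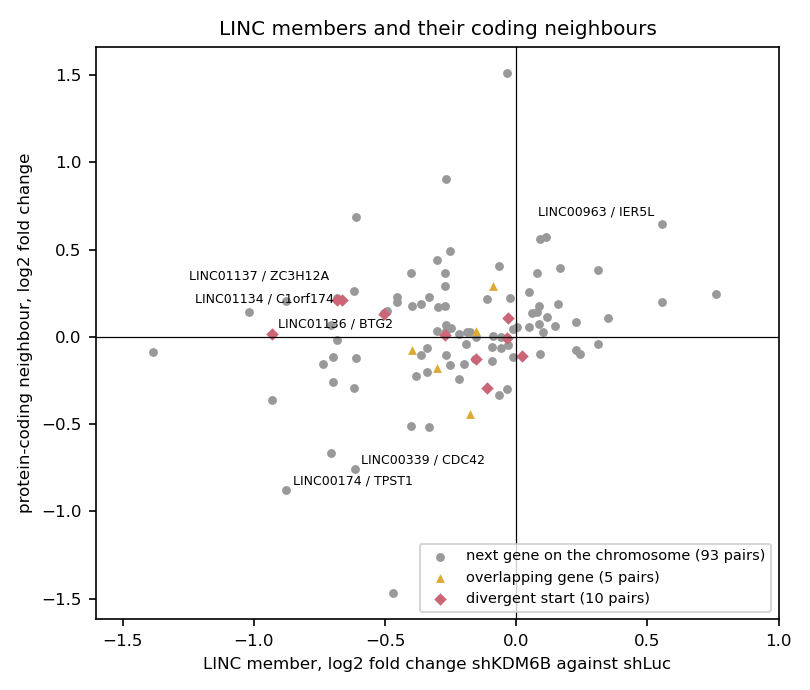
Log2 fold change of each tested LINC member (horizontal axis) and of its tested protein-coding neighbours (vertical axis), 1 point per pair, with overlapping genes as triangles and genes whose starts lie within 1000 bases back to back as diamonds. LINC00339 with CDC42 and LINC00174 with TPST1 lie at the lower left, and LINC00963 with IER5L at the upper right. The labelled diamonds LINC01136, LINC01137 and LINC01134 lie at the left with partners near or above 0.

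All 3 lower members with a back-to-back start fell while the coding partner did not. LINC01136, now BTG2-DT, starts opposite BTG2, an antiproliferative gene induced by p53. It had 27, 29 and 29 counts in shLuc and 15, 15 and 16 in shKDM6B (log2 fold change -0.93, SE 0.24, adjusted p = 0.00345). BTG2 had 3308, 3444 and 3408 counts against 3405, 3488 and 3785 (0.02, SE 0.06, adjusted p = 0.857). LINC01137, now LITATS1, starts opposite ZC3H12A, whose product Regnase-1 degrades messenger RNAs of inflammation. It had 39, 38 and 44 counts against 25, 29 and 24 (-0.68, SE 0.21, adjusted p = 0.0116), and ZC3H12A rose from 46.0 ± 1.70 to 53.0 ± 2.83 CPM (SD, n = 3 each; 0.21, SE 0.06, adjusted p = 0.0077). LINC01134 starts opposite C1orf174. It had 42, 59 and 52 counts against 26, 35 and 39 (-0.66, SE 0.18, adjusted p = 0.00542), and C1orf174 rose from 36.1 ± 1.61 to 41.7 ± 1.94 CPM (SD, n = 3 each; 0.21, SE 0.07, adjusted p = 0.0136). None of these 3 members had overlapping groups. Without the 3 libraries with most keratin, LINC01136 (-0.995, adjusted p = 0.0624) and LINC01134 (-0.65, adjusted p = 0.069) missed the threshold with log2 fold changes close to those above, and LINC01137 kept it (-0.91, adjusted p = 0.0351). Among the 7 tested back-to-back partners of members that did not pass, 1 was lower and 6 did not pass.

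The sequences between these opposed starts are shown because 1 short stretch of DNA serves as the start region of both genes. They run in the direction of the LINC transcript, and the capitals go from the start of the coding partner to the start of the LINC member, with 20 bases of the partner before them and the first bases of the LINC gene after them. The starts lie 194 bases apart for LINC01136 (minus strand, chr1:203305276-203305539), 137 for LINC01137 (minus strand, chr1:37474394-37474600) and 132 for LINC01134 (plus strand, chr1:3900252-3900453), all in RefSeq on GRCh38.p14.
LINC01136 / BTG2: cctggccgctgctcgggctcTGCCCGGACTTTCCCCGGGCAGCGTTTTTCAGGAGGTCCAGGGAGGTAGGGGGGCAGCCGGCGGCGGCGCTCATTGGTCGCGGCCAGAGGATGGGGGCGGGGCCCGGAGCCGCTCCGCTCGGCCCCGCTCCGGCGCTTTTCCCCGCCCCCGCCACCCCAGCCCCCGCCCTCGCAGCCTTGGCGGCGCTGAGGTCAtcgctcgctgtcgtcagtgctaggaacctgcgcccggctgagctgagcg
LINC01137 / ZC3H12A: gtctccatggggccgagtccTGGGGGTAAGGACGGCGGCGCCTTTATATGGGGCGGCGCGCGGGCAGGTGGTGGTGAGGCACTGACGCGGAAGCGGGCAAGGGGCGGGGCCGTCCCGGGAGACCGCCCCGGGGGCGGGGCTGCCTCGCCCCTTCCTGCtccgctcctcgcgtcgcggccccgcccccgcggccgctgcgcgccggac
LINC01134 / C1orf174: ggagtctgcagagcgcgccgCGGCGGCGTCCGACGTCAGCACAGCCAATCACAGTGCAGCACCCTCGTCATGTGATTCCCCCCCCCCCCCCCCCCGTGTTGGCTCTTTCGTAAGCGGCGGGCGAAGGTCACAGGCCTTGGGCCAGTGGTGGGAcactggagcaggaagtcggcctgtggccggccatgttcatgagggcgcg

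Promoter windows of 250 bases before to 50 after the start could be read for 64 members, and their median GC content was 60.2% against 58.7% over all 35116 RefSeq windows. Both strands were searched for 7 motifs. The ETS core CCGGAAG was found in 26.6% of member windows, against 17.1% of 14701 windows of tested genes and 10.3% of all windows. It was in 5 of 23 lower members and in 12 of 38 members that did not pass. The AP-1 site TGANTCA was in 7.8% of member windows and 5.0% of windows of tested genes, the E-box CACGTG in 10.9% and 9.4%, and the cyclic AMP element (TGAC followed by GTCA) in 3.1% and 2.8%. The interferon element (GAAA, any pair of bases, GAAA) was in 1.6% and 2.9%, and the EGR site (GCGT followed by GGGCG) in 0 of 64 and 1.2%. These are matches of letters in short windows and not measured binding.

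Genes that process or degrade noncoding RNA moved little as lists. Of 30 tested genes of the RNA exosome, its nuclear cofactors, the XRN exonucleases and nonsense-mediated decay, 7 were higher, 2 were lower and 21 did not pass, with a median log2 fold change of 0.04. UPF3B (0.33, adjusted p = 5.66e-05) and UPF2 (0.16, adjusted p = 0.0033), both of nonsense-mediated decay, and the exosome subunit EXOSC5 (0.28, adjusted p = 0.000121) were higher. PABPN1, the nuclear poly(A)-binding protein, was lower (-0.20, adjusted p = 0.00298). Of 14 tested genes of the Integrator complex, which cleaves nascent noncoding and other transcripts, 3 were higher, 1 was lower and 10 did not pass, with a median of 0.04. INTS10 (0.38, adjusted p = 2.34e-07), ASUN (0.17, adjusted p = 0.00279) and INTS6 (0.19, adjusted p = 0.0202) were higher and INTS9 was lower (-0.19, adjusted p = 0.0124). The shares past the threshold in both lists were below the 39.1% of all tested genes.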

How the data were processed

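RNA of MM.1S cells was sequenced in 6 libraries, 3 shLuc and 3 shKDM6B. The authors deposited whole-number counts per gene symbol for each library and a table of normalized values. The tools named, per the submitters' processing notes, are STAR, featureCounts and DESeq, and the build is GRCh37 (hg19). Their versions, the annotation, the strand setting and the handling of multi-mapping reads are not stated there. The normalized signal the authors deposited was a library's counts over a single factor for that library, within 1e-06 for 56609 matched genes. In each library 1 line with a date in place of a symbol was not used.

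Testing of the counts used edgeR 4.0.16 under R 4.3.3 (filterByExpr with a minimum count of 10, TMM, glmQLFit and glmQLFTest, group as the single term, 6 libraries), with Benjamini-Hochberg adjustment over 13839 genes. Every adjusted p in the text comes from this test unless another is named, and the SE is the one implied by its statistic. "Past the threshold" means an adjusted p under 0.05, and "not past" does not show that the groups are alike. Intervals between libraries cover these 6 libraries only. The script was tested on simulated data with known changes.

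The members and lists were chosen with earlier results of these data known. Named were KDM6B, the 12 largest falls and all rises past the threshold, the 10 most abundant members, those not past among the 20 most abundant, the 3 on each side of the floor, the neighbours of called members, and up to 4 genes of each list by p. Some genes and the results that need them are not reported here. Other names were chosen after their values were seen.

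All 85 members matched RefSeq (GRCh38.p14), 53 under the same symbol, 64 with a start window. Neighbours are protein-coding RefSeq genes, and predicted LOC symbols were passed over. GENCODE v29 exon lengths served for levels per kilobase; the authors' own gene models may differ. Alternatives were DESeq2 size factors, upper-quartile scaling, no filter, at least 1 CPM in 3 libraries, the replicate number as a block, each library left out, the DESeq2 1.42.0 Wald test, limma-voom and limma-trend (limma 3.58.1, the latter on log2(x + 1) of the normalized table), an adjusted p under 0.01, floors of 30 and 120 counts, and leaving out 3 libraries with keratin counts. Added after seeing the data was TMM computed on 3385 sparsely covered genes (under 0.03 counts per exon base).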

Additional observations from a re-analysis of the deposited data

How the results depend on the processing

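The count of lower members (27) stayed within 1.5 times of that value under every alternative except without the 3 libraries with keratin counts, where it was 10. That alternative leaves 1 shKDM6B library, whose spread is borrowed from shLuc. The count of higher members (4) was 2 by the DESeq2 Wald test and 2 at an adjusted p under 0.01. Leaving out 1 library gave 20 to 29 lower and 2 to 4 higher members.

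With the replicate number as a block, 30 members were lower and 4 higher, and 3052 genes were lower and 3166 higher. Deviations of same-numbered libraries correlated at 0.139, -0.075 and 0.156, and those of differently numbered libraries at -0.184 to 0.044. Whether the numbers pair the libraries was not settled by these values, and the group was kept as the single term.

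Of the 31 calls, 11 kept their side of the threshold under every alternative: LINC00116, LINC00174, LINC00263, LINC00338, LINC00339, LINC00467, LINC00511, LINC00657, LINC00896, LINC00963 and LINC00998. The DESeq2 Wald test lost 11 and the 3 keratin libraries 19. No call changed direction. Only some of the members that had not passed were read singly across the alternatives, and 4 of those changed direction. The others, LINC01003 and LINC00265 among them, were run as well but are not described singly here. The number over all members that had not passed may therefore be larger. The ranges that follow are over the runs with 1 library left out. LINC00909 ran from -0.005 (without shKDM6B replicate 1) to 0.042 (without shKDM6B replicate 3). It was -0.009 without the keratin libraries and 0.072 when scaled on sparsely covered genes. LINC01125 ran from -0.118 (without shLuc replicate 2) to 0.049 (without shLuc replicate 3) and was 0.016 when scaled on sparsely covered genes. LINC00672 ran from -0.029 and -0.027 (without shKDM6B replicates 3 and 2) to 0.431 (without shKDM6B replicate 1) and was 0.485 without the keratin libraries. LINC00884 ran from -0.359 (without shKDM6B replicate 3) to 0.041 and 0.048 (without shLuc replicate 2 or shKDM6B replicate 1) and was 0.293 without the keratin libraries. The cause was not tested. Depth limits the 32 members under 200 counts most.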

Other observations

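LINC-PINT, a p53-induced noncoding RNA whose symbol has no number and so lies outside the set, had 294, 322 and 342 raw counts in shLuc and 246, 232 and 313 in shKDM6B. Its level fell from 38.1 ± 2.04 to 30.2 ± 2.16 CPM (SD, n = 3 each, for a log2 fold change of -0.33 with SE 0.07 and adjusted p = 0.000931 by edgeR's quasi-likelihood test), with no overlap between groups. It was named after its values were seen.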
